A study of Mus musculus with 6 samples.

Results

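The miRNAs numbered 5000 and above were examined in small RNA libraries from the kidney inner medulla, the deepest part of the organ, in which the collecting ducts concentrate and drain the urine. miRNA numbers are given in order of entry to the public registry, so these are its late entries. Every entry with such a number was taken, whichever arm of the hairpin it came from, apart from the 4 names of miR-5132, miR-7688-5p and miR-8114. This gave 369 names of 1081 in the table. Because 154 names had the same 6 values as another of them, with at most 5 reads in all libraries together, the names hold 247 distinct patterns of values. The mice were 1 month old. Libraries came from 3 control mice, whose alleles the labels do not list, and from 3 DicerAQP2Cre+ mice, which lack Dicer1 in cells expressing the collecting duct water channel aquaporin-2. The whole inner medulla was sampled, and other cell types in it keep Dicer1. A lower level can therefore reflect fewer cells of a type or less RNA per cell, which cannot be told apart in bulk tissue.

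Precursor hairpins are cut into miRNA duplexes by Dicer, an RNase III enzyme. In the usual route the nuclear enzyme Drosha first cuts the hairpin out of a longer transcript, and Dicer then releases a 5p and a 3p arm. A mirtron takes another route. It is a short intron that folds into a hairpin once it has been spliced out and its lariat opened, so that splicing replaces Drosha while Dicer is still needed. In a tailed mirtron the hairpin sits at one end of a longer intron and the rest is trimmed away. An intron ends in AG, the splice acceptor, after a stretch rich in C and U, and the 3p arm of a mirtron at that end has the same last bases. Other registered hairpins coincide with exons, or with stable RNAs such as snoRNAs and scaRNAs, which guide the chemical modification of other RNAs and can themselves be cut into short fragments.

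A RefSeq sequence (GRCm38.p6) was found for 321 of the 369 names. The first set shows 9 of the 3p arms that end exactly at the last base of an intron, chosen for their level, their difference between genotypes or a shared seed. Capitals mark the seed, bases 2 to 8, by which a miRNA pairs with its targets, and the AG that closes the intron.
miR-6944-3p: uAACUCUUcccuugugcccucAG
miR-7046-3p: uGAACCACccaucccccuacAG
miR-7083-3p: uCUGCUCUccuggaccccAG
miR-6988-3p: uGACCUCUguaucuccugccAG
miR-6985-3p: cUCACAGCcaccuccucacAG
miR-7031-3p: aACCCUCUugcccucuccuAG
miR-7068-3p: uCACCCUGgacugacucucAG
miR-7018-3p: uCACCCUGcugccggcuugcAG
miR-7023-3p: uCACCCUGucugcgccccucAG
The last 3 share the seed CACCCUG but lie in introns of different genes, Cherp, Hspg2 and Pik3cd, and differ after the seed.

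The second set shows other members, with only the seed in capitals. miR-6945-3p and miR-6927-3p share the seed CUGAGCU. The arms of miR-6516 and the 5p arm of miR-7083 are given because both arms of these hairpins were tested, and the others because of their level or position.
miR-6945-3p: uCUGAGCUcugcccuucccau
miR-6927-3p: cCUGAGCUggcuccccugcag
miR-7083-5p: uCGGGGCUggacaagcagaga
miR-6516-5p: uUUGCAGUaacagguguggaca
miR-6516-3p: uCAUGUAUgauacugcaaacag
miR-8112: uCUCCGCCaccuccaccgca
miR-5114: aCUGGAGAcggaagcugcaaga
miR-8111: aCCGGGCAugguaguguacac
miR-6236: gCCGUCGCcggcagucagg
miR-5100: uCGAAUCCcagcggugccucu
miR-5121: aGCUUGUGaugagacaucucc

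The 3p arms shared a position that the choice by number did not use. Of the 158 3p arms with a sequence, 103 (65.2%) ended exactly at the last base of an annotated intron on the same strand, and 122 (77.2%) ended within 2 bases of it. All 103 ended in AG, as did 110 (69.6%) of the 158. Among 228 3p arms numbered under 1000, 0 ended at the last intron base, 2 (0.877%) ended within 2 bases of it, and 14 (6.14%) ended in AG. The class numbered from 1000 up to 5000 lay between these, with 11 of 58 (19.0%) at the last base. The base composition differed in the same way, as the median share of C and U was 71.4% in the late 3p arms and 53.6% in those numbered under 1000. The 131 late 5p arms were the reverse, with a median of 36.4% C and U, and 0 of them ended at an intron end. The closing AG and the share of C and U go with an intron end, so they are not findings apart from the position. The same holds for the 5p arms, which lie before the 3p arms in their hairpins. These are counts over registry entries, not over samples, so no test is given.

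**Figure D1:**
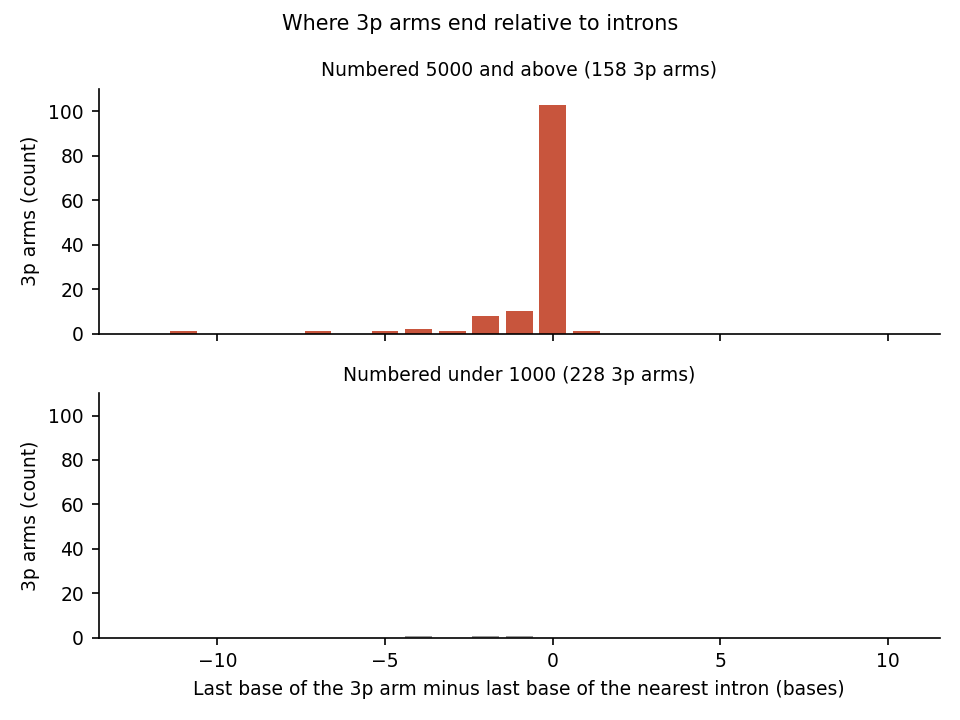
Number of 3p arms (vertical axis) by the distance in bases from the last base of the arm to the last base of the nearest annotated intron (horizontal axis, 0 is the last intron base, negative lies inside the intron); arms farther away are not drawn. Of 158 late-numbered 3p arms, 103 stand at 0, and of 228 arms numbered under 1000 none does.

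Of the 321 names with a sequence, 201 (62.6%) came from hairpins within 10 bases of the 3′ end of an intron, the place of a tailed mirtron, and 13 (4.05%) from hairpins that fill a whole intron, the place of a mirtron. Hairpins inside an intron away from its ends gave 31 names, and 30 lay over an exon of another gene. A scaRNA was overlapped by 2 names, the arms of miR-6516. Among names under 1000 with a sequence, 2 of 454 (0.441%) lay at the 3′ end of an intron and 118 (26.0%) lay outside genes, against 10 of 321 (3.12%) of the late names. Overlap with tRNA genes or with ribosomal DNA repeats was not analysed here. Positions were read on GRCm38, while the files were made on mm9, so no coordinates are given.

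Seeds were mostly unique. The 321 sequences held 305 distinct seeds, and 15 seeds were shared by 31 members in groups of 2 or 3. A further comparison with names under 1000 found the same seed in 13 members. Of these, miR-5129-3p, which ends 5 bases before an intron end of Zeb2, has the seed AUGUGCC of miR-455-5p, and miR-6985-3p has the seed UCACAGC of miR-673-5p. A shared seed is a match of letters, and no target was measured.

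Levels were low throughout. Values are normalized reads, which are reads divided by a size factor for each library, so that 1 read is worth between 0.74 and 1.96 normalized reads. A single read in all 6 libraries together was all that 82 names had, and 157 names had 3 reads or fewer. All 6 libraries held reads for 82 names, and only 5 averaged 100 normalized reads or more. A mean of at least 5 over the 6 libraries, needed for a test, was reached by 59 names, of which 40 were 3p arms, 8 were 5p arms and 11 carry no arm in the name. Their median level was 11 normalized reads, against 79.8 over all 461 tested entries.

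The members held 0.0428%, 0.057% and 0.0574% of the reads in control replicates 1 to 3, and 0.0491%, 0.0461% and 0.0379% in DicerAQP2Cre+ replicates 1 to 3. The 95% exact binomial intervals ran from 0.0413% to 0.0444% in the first of these libraries and from 0.0363% to 0.0395% in the last. The means were 0.0524% ± 0.00829 (SD, n = 3) and 0.0444% ± 0.00582 (SD, n = 3), and the ranges of the genotypes overlapped. As summed normalized reads the members averaged 2583 ± 303 in controls and 2540 ± 298 in DicerAQP2Cre+ (SD, n = 3). The ratio of DicerAQP2Cre+ to control was 0.983 for these sums and 0.846 for the shares. Depth ran from 2934851 reads in DicerAQP2Cre+ replicate 2 to 7614853 in DicerAQP2Cre+ replicate 1. The shallowest library had reads for 142 member names and the deepest for 228.

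The 3p arm was the more abundant arm in most hairpins. Both arms were in the table for 109 late hairpins, and the 3p arm had more reads in 64, the 5p arm in 35, with 10 equal. Per library, 84.6% to 87.9% of the reads of arm-named members came from 3p arms. For names under 1000 the same share was 9.19% to 16.9%, and the 3p arm led in 86 of 186 hairpins. Their share of reads depends heavily on miR-181a-5p, which alone averaged 2997000 normalized reads. Single hairpins were uneven: miR-7068 had 242 reads of its 3p arm and 2 of its 5p arm over all libraries. The balance was 223 to 1 for miR-6989, in an intron of the kinase gene Map4k2. At the other end, miR-7059, in an intron of Cln3, had 2 reads of its 3p arm and 87 of its 5p arm. miR-7083 and miR-6516 had both arms at similar counts, 282 3p and 174 5p reads for the first and 64 and 75 for the second.

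**Figure D2:**
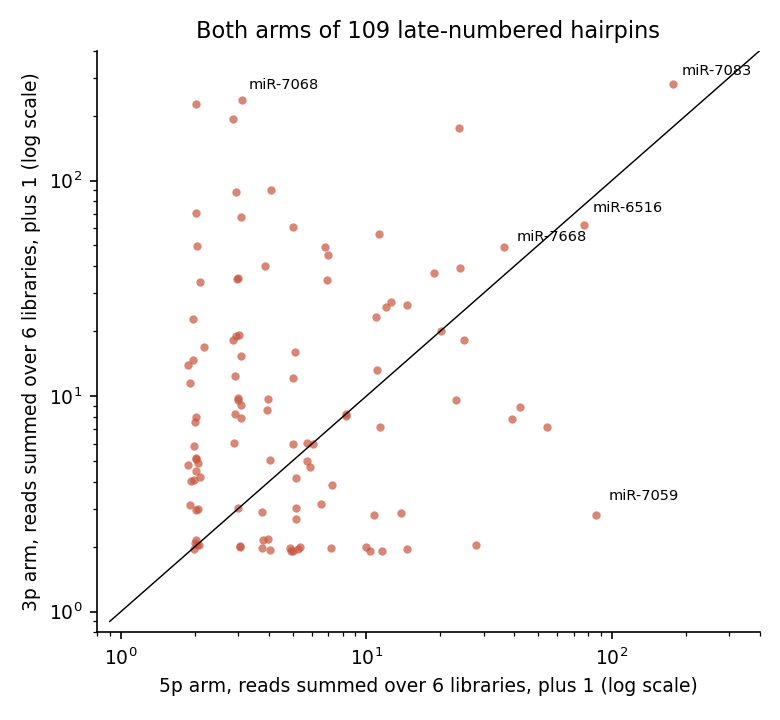
Reads of the 3p arm (vertical axis) against reads of the 5p arm (horizontal axis), each summed over 6 libraries plus 1 on log scales, for 109 late-numbered hairpins; points are moved slightly at random so that equal values can be seen, and the line marks equal arms. More points lie above the line (64) than below it (35), and miR-7059 is far below it.

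In the comparison of genotypes, which asks whether loss of Dicer1 in aquaporin-2 cells is seen in these late entries, 0 of 59 tested members passed limma's test at an adjusted p under 0.05. Of all 461 tested entries, 39 (8.46%) passed it, 23 lower (4.99%) and 16 higher (3.47%) in DicerAQP2Cre+. On recovered whole reads, edgeR and DESeq2 also called 0 members, and DESeq2 gave no adjusted p for 27 of them. At an unadjusted p under 0.05 limma found 7 members, 3 lower and 4 higher (11.9%, against 28.0% of all tested entries), while edgeR found 6 and DESeq2 3. The genotypes did not overlap for 10 members (16.9%, against 33.6% of all). The median log2 fold change was 0.05 in the members and -0.01 over all entries, with a median standard error of 0.45 and 0.32. A count of 0 calls thus comes with wide intervals, and it does not show that the members were unaltered.

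The members were also set beside other entries of similar level. At means between 5 and 50 normalized reads, 0 of 53 members and 4 of 147 entries numbered under 5000 were called by limma. In that range 6 members and 36 of the other entries had an unadjusted p under 0.05, and the genotypes did not overlap for 9 members and 41 of the others. Both of these shares were lower in the members, at a similar median standard error (0.45 in members, 0.46 in the others). The difference between the shares was not tested.

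**Figure D3:**
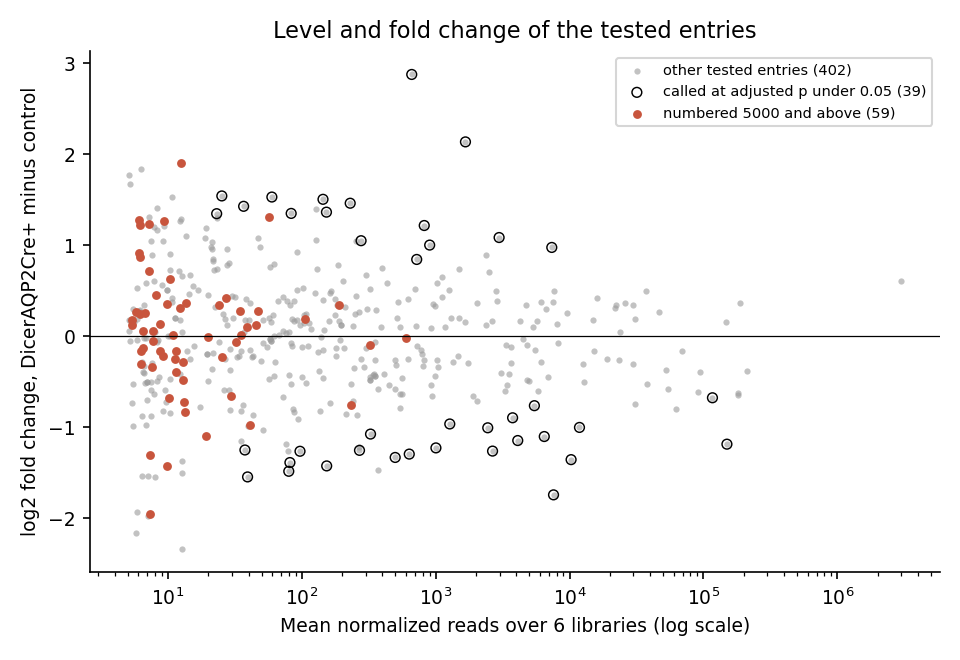
Log2 fold change, DicerAQP2Cre+ minus control on the log2(value + 1) scale (vertical axis), against the mean normalized reads over 6 libraries (horizontal axis, log scale) for 461 tested entries, with the 59 members in red and the 39 called entries circled. No red point is circled, and most red points lie at low levels, where the spread of fold changes is wide.

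Several miRNAs used as markers of cell types differed between genotypes. The markers are themselves miRNAs, so a change in cell numbers and a change in miRNA made per cell cannot be told apart. All 5 epithelial markers of the miR-200 family were called lower by limma, and their summed level was 16704 to 17708 normalized reads in controls and 7133 to 10776 in DicerAQP2Cre+. Of the kidney tubule markers 2 of 4 were called lower, though all 4 had negative log2 fold changes (-0.54 to -1.43). All 4 summed to 269068 to 299877 and 100532 to 208332. Of the stromal markers 2 of 4 were called higher, though all 4 had positive log2 fold changes (0.31 to 2.14). They summed to 23139 to 24331 and 27498 to 39621. Most of the stromal sum came from miR-143-3p, which was not called (log2 fold change 0.31, adjusted p = 0.315, limma). None of 2 endothelial, 3 tested leukocyte and 2 tested erythroid markers was called. Leukocyte markers summed to 12167 to 35214 normalized reads in controls and 15922 to 38104 in DicerAQP2Cre+, mostly from miR-150-5p. miR-142a-5p and miR-223-3p had reads in every library, whereas miR-142a-3p, a defining leukocyte miRNA, was at 0 in 5 of 6 libraries. The part of these shifts in the members' values was not tested. miR-451a, which is made without Dicer, was tested as well and was not called (log2 fold change -0.35, limma adjusted p = 0.605).

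Among members at an intron end, miR-6944-3p and miR-7046-3p made up most of the reads in 5 of 6 libraries. miR-6944-3p comes from a hairpin that fills an intron of Dbn1, the gene of the actin-binding protein drebrin. It had 323, 351 and 317 normalized reads in control replicates 1 to 3 and 422, 296 and 238 in DicerAQP2Cre+ replicates 1 to 3. The highest and the 2 lowest values were all in DicerAQP2Cre+ libraries, so the control range lay inside that of the other genotype. Its log2 fold change was -0.09 ± 0.25 (SE, n = 3 and 3; 95% interval -0.65 to 0.47; adjusted p = 0.824, limma).

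miR-7046-3p ends at the acceptor of an intron of Rabac1, whose protein binds prenylated Rab proteins. It had 331, 278 and 259 normalized reads in controls and 141, 143 and 243 in DicerAQP2Cre+. Every control library was above every DicerAQP2Cre+ library, although DicerAQP2Cre+ replicate 3 came close to the lowest control. The log2 fold change was -0.76 ± 0.27 (SE, n = 3 and 3; 95% interval -1.36 to -0.16) and did not pass the test (adjusted p = 0.109, limma). Without DicerAQP2Cre+ replicate 3 it was -1.02 with an adjusted p of 0.00458, and with libraries scaled to equal totals it was -0.97 with an adjusted p of 0.0388. Over all alternatives its adjusted p ran from 0.00458 to 0.272.

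Both arms of miR-7083, from an intron of Dock6, a guanine nucleotide exchange factor, were tested. The 3p arm had 54.6, 48.7 and 49.4 normalized reads in controls and 33.3, 9.8 and 49.0 in DicerAQP2Cre+. The controls lay close together, whereas the other libraries spread over more than their mean, with 5 reads in replicate 2. Its log2 fold change was -0.97 ± 0.49 (SE, n = 3 and 3; adjusted p = 0.229, limma), and it was -0.32 without DicerAQP2Cre+ replicate 2 and -1.43 (adjusted p = 0.0264, limma) without replicate 3. Over the alternatives in which this arm was tested, its adjusted p ran from 0.0264 to 0.567. The 5p arm had 31.5, 20.4 and 15.5 normalized reads in controls and 22.2, 21.6 and 51.1 in DicerAQP2Cre+, with a log2 fold change of 0.41 ± 0.42 (SE, n = 3 and 3; adjusted p = 0.571, limma), or 0.02 without DicerAQP2Cre+ replicate 3. The 3p arm was above the 5p arm in all 3 controls and in DicerAQP2Cre+ replicate 1, and below it in DicerAQP2Cre+ replicates 2 and 3. The difference between the arms was not tested.

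miR-7068-3p comes from a hairpin that fills an intron of Cherp, which encodes a protein of the endoplasmic reticulum and of splicing complexes. Normalized reads of 31.5, 36.9 and 42.6 in controls stood against 29.6, 41.2 and 50.1 in DicerAQP2Cre+. The genotypes overlapped over nearly their whole range, and the log2 fold change was 0.10 ± 0.30 (SE, n = 3 and 3; adjusted p = 0.843, limma). miR-7018-3p, with the same seed, comes from a hairpin that fills an intron of Hspg2, the perlecan gene, and averaged 12.9 ± 1.27 and 9.92 ± 3.4 normalized reads (SD, n = 3), with a log2 fold change of -0.39. The third with this seed, miR-7023-3p, had 0 reads in every control and 2, 4 and 1 reads in DicerAQP2Cre+ libraries. A count of 0 allows up to 3 reads, and 1 library had more than that.

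miR-6945-3p ends 2 bases before the end of an intron of Pdlim7, whose protein binds actin filaments. It had 4.61, 3.93 and 6.77 normalized reads in controls and 12.6, 15.7 and 12.3 in DicerAQP2Cre+. The genotypes did not overlap, from 5 to 7 reads in controls and 8 to 17 in the others. Its log2 fold change of 1.27 ± 0.41 (SE, n = 3 and 3; 95% interval 0.36 to 2.17) had the lowest adjusted p of all members but did not pass (adjusted p = 0.0888, limma), and it was 0.043 without the mean-variance trend. miR-6927-3p, with the same seed, went the other way in few reads, with 1, 2 and 4 in controls and 0 in every DicerAQP2Cre+ library.

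miR-7031-3p ends at an acceptor of Sh2b3, an adaptor protein of cytokine signalling. Its 3.85, 5.5 and 0.968 normalized reads in controls were all below the 8.88, 7.84 and 9.19 in DicerAQP2Cre+. This gave a log2 fold change of 1.28 ± 0.55 (SE, n = 3 and 3; adjusted p = 0.155, limma), and of 0.78 without control replicate 3, which had 1 read. miR-6985-3p, at an acceptor of the cofilin phosphatase gene Ssh3, had 10.8, 6.29 and 14.5 normalized reads in controls and 2.22, 1.96 and 8.17 in DicerAQP2Cre+. Here DicerAQP2Cre+ replicate 3 lay among the controls. Its log2 fold change was -1.31 ± 0.57 (SE, n = 3 and 3; adjusted p = 0.164, limma), and -1.83 (adjusted p = 0.0353, limma) without that library. Over the alternatives in which miR-6985-3p was tested, its adjusted p ran from 0.0353 to 0.419. Without that library limma also called more entries in the whole table, 62 lower and 43 higher, beside 23 and 16 with all libraries.

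Of the remaining members ending within 2 bases of an intron end, miR-6988-3p (Syvn1, a ubiquitin ligase of the endoplasmic reticulum) and miR-6948-3p (Acin1) were lower in every DicerAQP2Cre+ library than in every control. miR-6988-3p had 27.7, 24.4 and 23.2 against 21.5, 3.92 and 15.3 normalized reads, with an adjusted p of 0.201, and miR-6948-3p had 19.2, 13.4 and 17.4 against 8.88, 9.8 and 10.2, with an adjusted p of 0.216 (limma, n = 3 and 3). The others overlapped between genotypes. Small log2 fold changes, between -0.07 and 0.06, were found for miR-7052-3p (Josd2), miR-7035-3p (Rasa4), miR-6943-3p (Grk6), miR-6899-3p (Klf7) and miR-7070-3p (Fbxw9). The log2 fold change was between 0.14 and 0.28 for miR-6968-3p (Phf1), miR-6975-3p (Ddx39b), miR-7674-3p (Nup214) and miR-6989-3p (Map4k2). Below 0 lay miR-7226-3p (Ptprf) at -0.22, miR-7015-3p (Smap2) at -0.28 and miR-7019-3p (Pink1) at -0.30. miR-6418-3p, which runs 1 base past an intron end of Gnb2, was at -0.17. Above it lay miR-7045-3p (Chd4) at 0.91 and miR-7036a-3p (Srrt) at 1.22, and the second had 0 reads in control replicate 2. In all, 25 members ending within 2 bases of an intron end were tested, 13 had a lower and 12 a higher mean log value, and their median log2 fold change was -0.06.

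Summed over tested and untested names, members ending within 2 bases of an intron end had 1147, 1040 and 1032 normalized reads in controls and 988, 817 and 996 in DicerAQP2Cre+. All 3 controls were higher, with means of 1073 ± 64.1 and 934 ± 101 (SD, n = 3). Without miR-6944-3p and miR-7046-3p, which held 48.3% to 60.5% of this sum, the means were 452 ± 41 and 439 ± 69.4 and the genotypes overlapped. All other members summed to 1510 ± 367 and 1607 ± 347 (SD, n = 3).

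miR-5099 had the highest mean of all members. It had 204, 926 and 794 normalized reads in controls and 744, 592 and 329 in DicerAQP2Cre+. Control replicate 1 was the lowest of the 6 libraries and control replicates 2 and 3 were the highest. The log2 fold change was -0.02 ± 0.52 (SE, n = 3 and 3; adjusted p = 0.987, limma), and it moved to -0.71 without control replicate 1 and to 0.38 without control replicate 2. The spread within the controls was thus larger than the difference between the genotypes.

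miR-8112, miR-5122 and miR-5114 were also among the 10 highest. miR-8112, over an exon of Krcc1, had 201, 146 and 157 normalized reads in controls and 222, 218 and 195 in DicerAQP2Cre+. The lowest DicerAQP2Cre+ library lay just below the highest control, with a log2 fold change of 0.34 ± 0.23 (SE, n = 3 and 3; adjusted p = 0.363, limma). miR-5122 had 53.1, 75.5 and 163 normalized reads in controls and 150, 145 and 45.0 in DicerAQP2Cre+. Each genotype held both high and low libraries, with a log2 fold change of 0.19 ± 0.51 (SE, n = 3 and 3; adjusted p = 0.814, limma). miR-5114, over an exon of the fatty acid desaturase gene Scd2, had 56.9, 34.6 and 40.6 in controls and 47.3, 47.0 and 47.0 in DicerAQP2Cre+. Its DicerAQP2Cre+ values all lay inside the control range, with a log2 fold change of 0.13 ± 0.29 (SE, n = 3 and 3; adjusted p = 0.797, limma).

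miR-8111 had 49.2, 35.4 and 40.6 normalized reads in controls and 42.9, 70.5 and 41.9 in DicerAQP2Cre+. Only DicerAQP2Cre+ replicate 2 was above the control range, and the log2 fold change of 0.27 ± 0.31 (SE, n = 3 and 3; adjusted p = 0.611, limma) was 0.03 without it. The same library stood out for miR-6236, which is on a list of entries regarded as fragments of rRNA or tRNA. It had 13.1, 14.1 and 31.9 normalized reads in controls and 22.9, 241 and 17.4 in DicerAQP2Cre+. Its 123 reads in DicerAQP2Cre+ replicate 2, the shallowest library, exceeded the count in every other library, which held 17 to 33. The log2 fold change was 1.31 ± 0.82 (SE, n = 3 and 3; 95% interval -0.51 to 3.12; adjusted p = 0.325, limma), and 0.13 without DicerAQP2Cre+ replicate 2. On recovered reads it was 2.28 with edgeR and 2.32 with DESeq2, and neither called it. Of the 10 entries on that list 2 were in the table, and the other, miR-3968, is numbered below 5000 and rose, with 109, 131 and 119 against 369, 408 and 241 normalized reads (log2 fold change 1.46, adjusted p = 0.0126, limma, n = 3 and 3).

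The arms of miR-6516, which overlap the scaRNA gene Gm26083 within Snhg20, a host gene of small nucleolar RNA, differed from each other in their pattern. The 3p arm had 1.54, 10.2 and 2.9 normalized reads in controls and 7.4, 33.3 and 19.4 in DicerAQP2Cre+. Control replicate 2 lay above DicerAQP2Cre+ replicate 1, and the other libraries separated by genotype. Its log2 fold change of 1.91 ± 0.66 (SE, n = 3 and 3; 95% interval 0.44 to 3.38) was the largest rise among tested members but did not pass (adjusted p = 0.1, limma). It was 2.46 with an adjusted p of 0.0479 without DicerAQP2Cre+ replicate 1, and 1.45 without DicerAQP2Cre+ replicate 2. The 5p arm had 13.8, 11.8 and 10.6 in controls and 14.1, 9.8 and 7.15 in DicerAQP2Cre+, a log2 fold change of -0.25 ± 0.39 (SE, n = 3 and 3; adjusted p = 0.736, limma). The 5p arm was the higher arm in all 3 controls and the lower arm in DicerAQP2Cre+ replicates 2 and 3. No test of the difference between the arms was made.

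miR-5100, inside an intron of the mitochondrial dynamics gene Mief2, had 10.8, 16.5 and 6.77 normalized reads in controls and 8.14, 0 and 2.04 in DicerAQP2Cre+. DicerAQP2Cre+ replicate 2 had 0 reads, which at its depth allows up to 5.88 normalized reads. The log2 fold change was -1.95 ± 0.75 (SE, n = 3 and 3; adjusted p = 0.130, limma). It was -1.35 with edgeR, -1.15 without DicerAQP2Cre+ replicate 2, and -2.75 with an adjusted p of 0.0474 without replicate 1. miR-6953-3p had 15.4, 11.8 and 10.6 in controls and 8.88, 11.8 and 0 in DicerAQP2Cre+. Its log2 fold change of -1.43 ± 0.83 (SE, n = 3 and 3; adjusted p = 0.295, limma) rested on the 0 in DicerAQP2Cre+ replicate 3, and was -0.26 without that library.

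Both arms of miR-7668, opposite the zinc finger gene Zfp27, were tested. The 5p arm had 7.69, 3.14 and 4.84 normalized reads in controls and 3.7, 17.6 and 3.06 in DicerAQP2Cre+, so that only DicerAQP2Cre+ replicate 2 was above the controls (log2 fold change 0.25 ± 0.64; SE, n = 3 and 3; adjusted p = 0.814, limma). The 3p arm had 6.15, 7.07 and 12.6 in controls and 4.44, 7.84 and 7.15 in DicerAQP2Cre+, and the genotypes overlapped (log2 fold change -0.33 ± 0.46; SE, n = 3 and 3; adjusted p = 0.695, limma).

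The other tested members with a sequence are given by their log2 fold changes. miR-5121, which overlaps the snoRNA Snord33 in an intron of the ribosomal protein gene Rpl13a, had 14.6, 33.8 and 10.6 normalized reads in controls and 11.8, 35.3 and 12.3 in DicerAQP2Cre+. Replicate 2 of each genotype was high, and the log2 fold change was -0.01. The 5p arms miR-7059-5p (Cln3) and miR-7033-5p (Pom121), from hairpins at the 3′ end of introns, had values of -0.48 and 0.36. The genotypes of miR-7059-5p did not overlap, although its lowest control (13.5 normalized reads) and its highest DicerAQP2Cre+ library (13.3) were close. Between -0.16 and 0.31 lay miR-5620-5p (opposite Clcn4), miR-7025-3p, miR-7240-5p, miR-7653-3p (over an exon of Tlcd1), miR-5129-3p and miR-8103 (inside an intron of Osbpl7). Of these, miR-7025-3p ranged most widely, from 1.02 normalized reads in DicerAQP2Cre+ replicate 3 to 31.1 in DicerAQP2Cre+ replicate 1, and its log2 fold change was -0.16 with limma and 0.82 with edgeR. Above 0.4 lay miR-7655-3p (Mllt10) at 0.45, miR-7658-3p (Plekhn1) at 0.63 and miR-7687-3p (Gse1) at 0.87, and miR-5621-3p (Tmem94) was at -0.68. None of these passed the test.

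Among the 11 tested names that had no sequence matched, 4 had genotypes that did not overlap. Over all 461 tested entries this held for 155 (33.6%). miR-6956-3p had 33.1, 38.5 and 35.8 normalized reads in controls and 17.8, 19.6 and 31.7 in DicerAQP2Cre+, with a log2 fold change of -0.66 (adjusted p = 0.213, limma, n = 3 and 3). miR-6954-3p was also lower, with 13.8, 18.1 and 20.3 against 7.4, 7.84 and 13.3 (log2 fold change -0.84). miR-5107-5p was higher, with 2.31, 5.5 and 3.87 against 5.92, 13.7 and 12.3 (log2 fold change 1.23), as was miR-6395, with 6.92, 3.93 and 4.84 against 7.4, 9.8 and 10.2 (log2 fold change 0.72). miR-6952-3p, miR-6980-3p, miR-7224-3p and miR-6539 had log2 fold changes between -0.22 and 0.36 and overlapped between genotypes. miR-7224-3p was highest in DicerAQP2Cre+ replicate 1, at 51.8 normalized reads against 14.3 to 22.3 elsewhere.

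**Figure D4:**
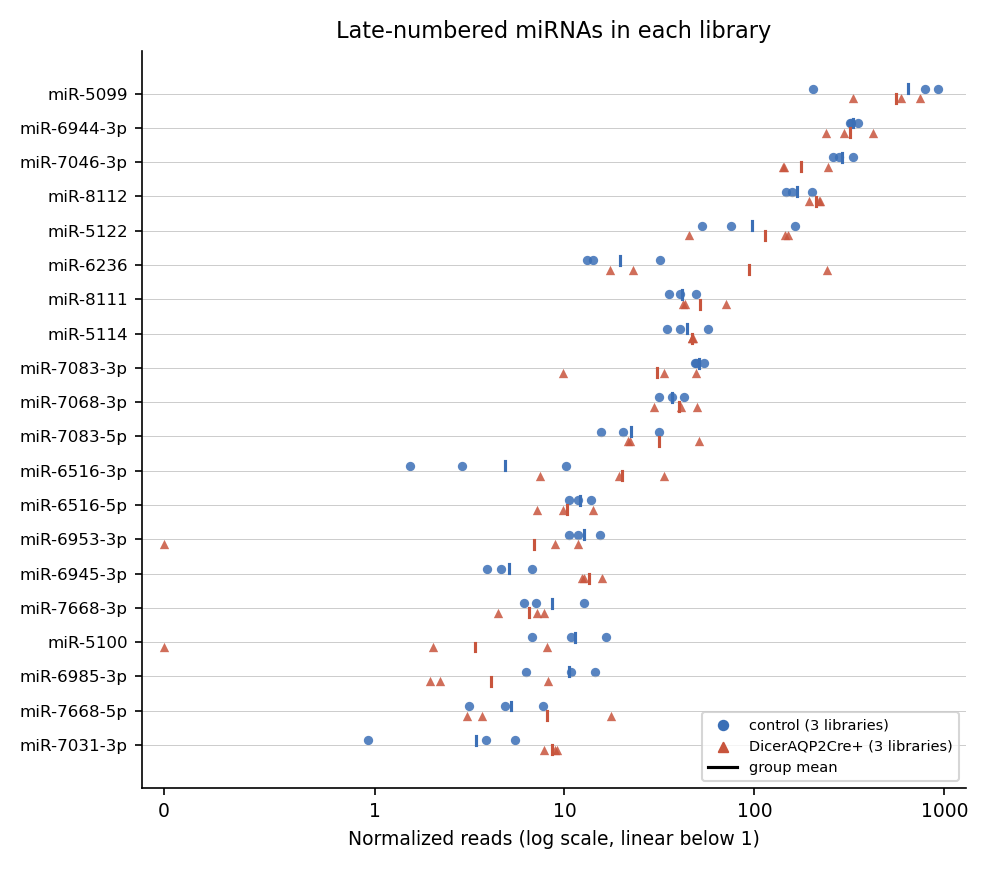
Normalized reads (horizontal axis, log scale above 1 and linear below) of the 20 members given in full, one row each, in 3 control libraries (circles) and 3 DicerAQP2Cre+ libraries (triangles), with bars at the group means. miR-7046-3p, miR-6945-3p and miR-7031-3p separate by genotype, and single DicerAQP2Cre+ libraries stand apart for miR-6236 and miR-7083-3p. miR-6945-3p and miR-7031-3p were chosen for the size of their rise, and 155 of all 461 tested entries (33.6%) separate by genotype.

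No library was extreme in all members. Of the 59 tested members, 15 had their highest value in DicerAQP2Cre+ replicate 3, 13 in DicerAQP2Cre+ replicate 2, 11 in control replicate 1, 9 in DicerAQP2Cre+ replicate 1, 6 in control replicate 2 and 5 in control replicate 3. DicerAQP2Cre+ replicate 2, the shallowest, also held the lowest value of 13.

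The 310 names below the filter carried few reads. The highest were miR-7666-3p, miR-6919-3p at an acceptor of Mgat4b, miR-5113 over an exon of Tnrc6b, miR-7063-3p at an acceptor of Ap2a2 and miR-7049-5p from an intron of Pak4, with means over all libraries of 4.71, 4.65, 4.44, 4.31 and 4.18 normalized reads. Reads in every library of 1 genotype and in none of the other were found for 7 names (1.9%), against 14 of all 1081 entries (1.3%), each of them below the filter. Besides miR-7023-3p, miR-5125 (Srrm2) had them only in DicerAQP2Cre+, with 5, 1 and 2 reads. miR-7655-5p, miR-5101 (at an acceptor of Syne2), miR-7020-5p and miR-7685-5p, besides miR-6927-3p, had them only in controls, with 1 to 3 reads per library. Each of the 7 names had at most 1 library with more than 3 reads, the number that a count of 0 allows, so no fold change is given.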

How the data were processed

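The authors deposited 1 signal value per mature miRNA and library: read counts divided by a size factor. This was read from the values, since 100% were whole multiples of 1 read within 0.01 read. FastQC 0.11.3, DESeq2 and mm9 are named, per the submitters' processing notes. Which aligner, counter and miRNA release they used is not given in the sources used here. Columns CTR1 to CTR3 match the control titles. CK01 to CK03 were taken as DicerAQP2Cre+ replicates 1 to 3, an inference from the names on which every direction rests. The design describes separate mice.

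Entries with a mean of at least 5 (461 tested, 620 not) were tested on log2(value + 1), two-sided, by limma 3.58.1 in R 4.3.3, with a trend of variance on mean, no replicate block and Benjamini-Hochberg adjustment over all tested entries at 0.05. The added 1 shrinks fold changes of low entries. Beside edgeR, some were still larger in size with limma, as for miR-5100 (-1.95 with limma, -1.35 with edgeR). Others were smaller, as for miR-6945-3p (1.27 with limma, 1.43 with edgeR). edgeR 4.0.16 and DESeq2 1.42.0 were run on the recovered reads as alternatives. The fit was tested on simulated data. Intron ends and host genes came from GENCODE M21 and sequences from RefSeq, both on GRCm38, for 321 of 369 names. PCR copies are not separate molecules, so the intervals hold only the error of counting. Named in full were the 10 highest members, the 3 largest rises and falls among the rest, and both arms where both were tested; other tested members are named with values. Below the filter, the 5 highest and those with reads in 1 genotype only are named. The members and lists were chosen with earlier results of these data known.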

Additional observations from a re-analysis of the deposited data

How the results depend on the processing

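Several alternatives changed single calls. Members called lower numbered 0, and 1 with equal totals (miR-7046-3p); leaving out 1 library gave 0 to 3, namely miR-5100 without DicerAQP2Cre+ replicate 1, and miR-7083-3p, miR-6985-3p and miR-7046-3p without DicerAQP2Cre+ replicate 3. Members called higher numbered 0, and 1 without the trend or at an adjusted p under 0.1 (miR-6945-3p in both); leaving out 1 library gave 0 to 1. The labels do not say whether replicate numbers pair the samples. Deviations of same-numbered libraries from their group means correlated at -0.0589, 0.00541 and 0.0551, which with 3 libraries per genotype cannot decide it. With a replicate block 1 member was called higher (miR-6516-3p, adjusted p = 0.0432, limma) and 0 lower, beside 18 lower and 14 higher in the whole table. In the whole table, lower calls were 48 with equal totals, 11 without the trend, 41 at an adjusted p under 0.1 and 0 to 62 when 1 library was left out. Higher calls were 7 without the trend, 29 with DESeq2, 30 at an adjusted p under 0.1 and 0 to 43 when 1 library was left out. The 62 lower and 43 higher calls both came without DicerAQP2Cre+ replicate 3, beside 23 and 16 with all libraries.

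The members' median log2 fold change of 0.05 was -0.13 with equal totals, 0.16 with edgeR and 0.15 with DESeq2, while the median of all entries moved from -0.01 to -0.21 with equal totals and 0.1 with edgeR. Signs changed in 6 of the 20 members given in full. miR-5099 was at 0.04 with TMM factors and at -0.71 to 0.38 when 1 library was left out. miR-6944-3p was at 0.01 with edgeR and at -0.31 to 0.10 without 1 library. With equal totals miR-5122 was at -0.01, miR-5114 at -0.08 and miR-7068-3p at -0.11; without 1 library they ran from -0.15 to 0.76, -0.03 to 0.32 and -0.07 to 0.30. miR-7668-5p ran from -0.01 to 0.65 without 1 library. The cause of these changes was not tested. Depth limits what can be seen of single members: 157 names had 3 reads or fewer in all libraries together, and a count of 0 in DicerAQP2Cre+ replicate 2 allows 5.88 normalized reads.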
